A study of Mus musculus with 8 samples.

Results

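The comparison of high-fat diet (HFD) with chow, without drug, was described across all genes measured in epididymal fat, the visceral pad beside the testis, of C57BL/6J males. The array had probe sets with a single gene symbol for 18193 genes, and 11232 of these were bright enough to be tested, while 6961 were not. All 4 arrays of the 2 groups were used, 2 mice per group, out of 8 arrays and 4 groups in the study. The mice were 6 weeks old at purchase and ate for 24 weeks either a chow with 10% of its calories from fat or a diet with 30%. The fat-fed mice were then randomized, and the HFD group stayed on the diet for the next 5 weeks without drug, while the other arms received telmisartan or candesartan. Those drug arms entered the test through the shared estimate of the spread. All 8 arrays also set the common signal scale, the floor for low signals and which genes and probe sets were bright enough to test. The labels name no diet composition beyond the fat calories, no body or fat pad weight, and no shared cage or litter. The values are signal intensities from RNA of the whole pad, so a fall may come from fewer cells of a type or from less RNA per cell, which cannot be told apart here.

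Visceral fat stores triglyceride in adipocytes and also holds blood and lymphatic vessels, stromal progenitors, nerves, mesothelium and immune cells. When it expands under a fat-rich diet, macrophages gather around failing adipocytes, take up their lipid in lysosomes and change their surface receptors, while adipocytes reduce insulin-driven glucose uptake and lipid synthesis. The macrophage and metabolic genes are the familiar side of this response, and the account below covers the rest of the genome as well as these.

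Before scaling, the chow arrays had 2%-trimmed means of 265 and 234 and the HFD arrays of 248 and 211, and all were brought to a common level. Log2 differences between the chow mice had an SD of 0.445 over genes and those between the HFD mice one of 0.273, so the chow mice differed more from each other. Adipocyte markers were bright in all 4 mice. Adipoq, which encodes adiponectin, read 15423 and 17415 in the chow mice and 15646 and 16814 in the HFD mice. The summed signal of 12 adipocyte markers was 113273 and 132126 in chow and 106346 and 111510 in HFD, and only 1 of them, Slc2a4, was called. Summed over 10 macrophage markers, the signal was 24096 and 26109 in chow and 51627 and 52931 in HFD, with 9 of 10 called higher and none of the 10 at the floor in any of the 4 mice. The part of these markers in the changes of other genes was not tested. Of 13 epididymis and testis markers and 6 eosinophil markers on the array, 0 were bright enough to test.

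A limited share of the genes tested was called, and more were called higher than lower. With 2 mice per group, a gene that was not called is not shown to be unchanged. A gene was called where its adjusted p by limma, a linear model with moderated variances, was under 0.05 after Benjamini-Hochberg adjustment over all genes tested. Of the 11232 genes, 909 were called (8.09%), 578 higher (5.15%) and 331 lower (2.95%). Before adjustment, 2710 genes had a limma p under 0.05. Called rises were also larger than called falls. The median rise was 1.25 on the log2 scale (quartiles 0.87 and 1.79), and 104 genes rose at least 4-fold, 35 of them over 8-fold. The median size of a fall was 0.91 (quartiles 0.75 and 1.18), 10 genes fell at least 4-fold and 0 fell over 8-fold. The brightness filter used the mean over all 8 arrays, most of them from fat-fed mice. It therefore favours genes bright with HFD over genes bright only with chow. Among called genes, 8 rises had a chow array at the floor and 0 falls had an HFD array there. How much of the difference in number and size comes from this filter was not tested. Over all genes tested the median log2 change was -0.01, and 48.5% of the changes were above 0. The arrays of the diet groups did not overlap for 58.1% of all genes tested and for each of the 909 called genes. An exact permutation test of 2 mice against 2 cannot go below 0.333, so the calls rest on the spread pooled over all genes and groups.

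**Figure D1:**
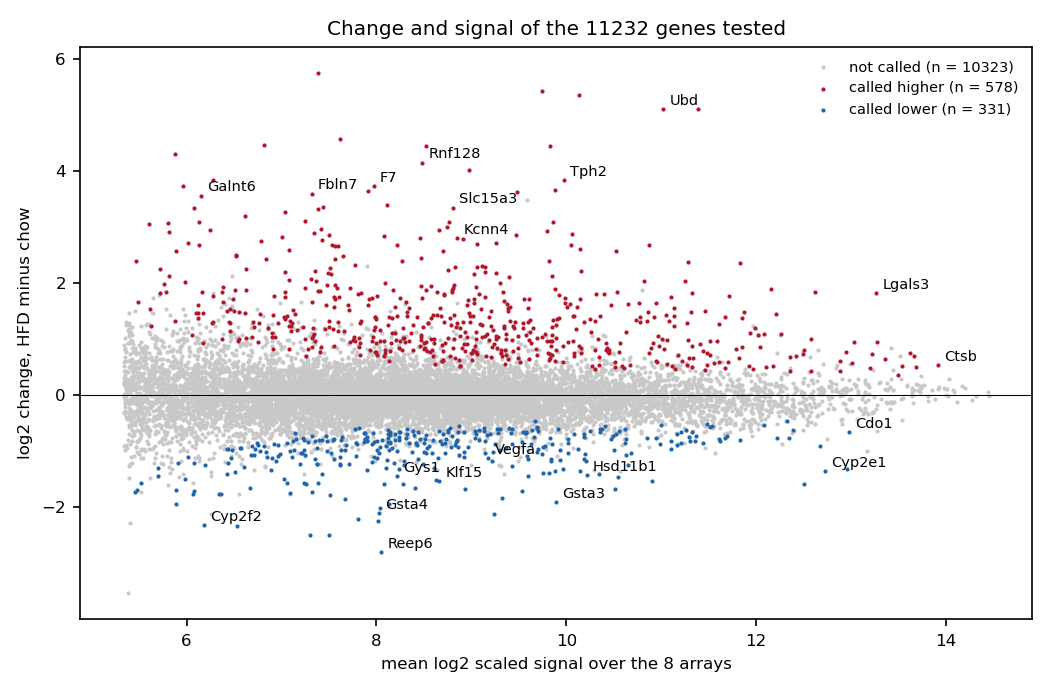
Log2 change of HFD minus chow for each of the 11232 genes tested (vertical axis) against the mean log2 scaled signal over the 8 arrays (horizontal axis), 1 point per gene, with 578 genes called higher in red, 331 called lower in blue and the others in grey. Rises reach beyond 5 on the log2 scale, while called falls end at -2.81 (Reep6), and calls occur from dim to bright genes.

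The brightest genes that rose had modest folds. Ctsb, a lysosomal cysteine protease, read 11684 and 11732 in the chow mice and 16436 and 17727 in the HFD mice, a 1.46-fold rise. Psap, the precursor of the activators of sphingolipid hydrolases, rose 1.62-fold, and Npc2, which binds cholesterol in the lysosome, 1.41-fold. H2-K1, a class I antigen-presenting protein, rose 1.43-fold and Plin2, a coat protein of lipid droplets, 1.92-fold. The brightest genes that fell included Cdo1, which breaks down cysteine, with 10833 and 10435 in chow and 6937 and 6557 in HFD. Thrsp, a lipogenic protein of adipocytes, fell from 15435 and 13413 to 5749 and 5817, and Retnla, a resistin-like protein secreted in fat, from 10882 and 11626 to 4700 and 3004. The mice of the 2 groups did not overlap for any of these genes, as for every called gene.

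How firmly a call stood depended on which array was left out. Leaving out HFD array 1 or 2 gave 182 and 165 calls, leaving out chow array 1 or 2 gave 510 and 615, and leaving out a candesartan array gave 533 and 535. Leaving out a telmisartan array gave 1589 and 1611. Without a brightness filter 174 of 18193 genes were called. Whichever of the 8 arrays was left out, 124 rises and 18 falls were called. The 18 falls are Gsta4, Ptges, Alas2, Acaca, Oscp1, Retnla, Pacsin3, Gys1, Klhl2, Hsd11b1, Gpt2, Fcna, Sfxn1, Thrsp, Gpd2, Sox7, Uck1 and the clone 9630013D21Rik. Such genes are called stable below. Any other called gene lost its call without at least 1 array. Of the 909 calls, 181 were also made without HFD array 1 and 164 without HFD array 2.

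A further probe set of the same gene gave a second reading where the array held one past the brightness filter. Of 266 called rises with another probe set, 262 showed the same direction there (98.5%), 137 of the further probe sets were themselves called higher and 0 lower. Of 124 falls, 119 had the same direction (96.0%), 43 were called lower and 0 higher. Among 4757 genes not called the direction was shared by 72.7%. Both probe sets were read on the same arrays, so this repeats the probe and not the mice.

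The largest rise of all was that of Cck, the gut and brain peptide cholecystokinin, which read 6.68 (the floor) and 10.2 in the chow mice and 598 and 332 in the HFD mice. With 1 chow array at the floor, the size of its fold rests on where the floor was set. Zranb3, a DNA-annealing helicase, read 31.6 and 15.5 against 495 and 566. Trem2, a lipid-sensing receptor of myeloid cells, read 100.03 and 84.32 in the chow mice and 2033 and 1972 in the HFD mice. This is a 21.8-fold rise (log2 change 4.45, 95% CI 3.68 to 5.21, limma adjusted p 0.000536). Il7r, the alpha chain of the interleukin 7 receptor, rose from 46.7 and 98.1 to 1075 and 1131. Rnf128, a membrane-bound ubiquitin ligase, rose from 50.8 and 46.5 to 755 and 996. F7, which encodes coagulation factor VII, rose from 33.5 and 44.3 to 425 and 616. All 6 were stable calls, and the HFD mice lay far above the chow mice.

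Several of the largest rises were of genes better known from other tissues. Tph2, the tryptophan hydroxylase of serotonin neurons, read 288 and 61.1 in the chow mice, which differed clearly from each other, and 2179 and 1659 in the HFD mice. Its log2 change was 3.84 (95% CI 2.55 to 5.13), and it was not called without HFD array 1. Gpr50, a melatonin receptor relative, read 6.68 and 8.06 in chow, 1 of these values being the floor, and 260 and 81.4 in HFD. Gnal, a G protein subunit of olfactory neurons, and Trdn, which anchors proteins of the sarcoplasmic reticulum, also had 1 chow array at the floor. The sizes of these rises depend on that floor. Gnal reached 174 and 140 with HFD, and Trdn 190 and 123. Fbln7, an extracellular matrix fibulin, went from 27.3 and 31.1 to 324 and 388, a stable call. Pvalb, a calcium buffer of fast muscle fibres and interneurons, rose from 20.5 and 42.8 to 286 and 227. It was the only 1 of 5 tested skeletal muscle markers called, and Acta1, the actin of muscle fibres, read 1046 and 1010 in chow and 625 and 540 in HFD without passing the test (log2 change -0.82, limma adjusted p 0.11).

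**Figure D2:**
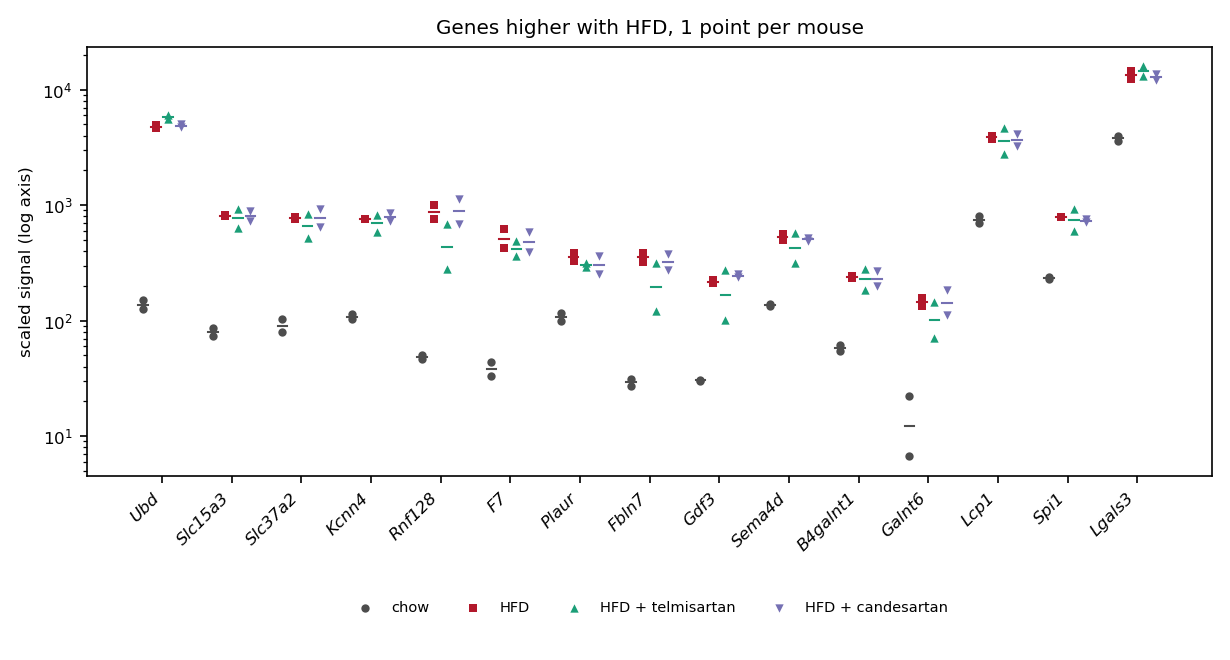
Scaled signal (vertical log axis) of 15 genes called higher with HFD, 1 point per mouse. Groups are chow (black), HFD (red) and, for reference, the arms with telmisartan (green) and candesartan (purple), with lines at their geometric means. Both HFD mice lie above both chow mice in each gene, from 3.30-fold for Plaur to 34.7-fold for Ubd.

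The largest fall was that of Reep6, and genes of several functions followed. Reep6, which shapes endoplasmic reticulum membranes, read 1017 and 916 in chow and 155 and 123 in HFD (log2 change -2.81, 95% CI -3.71 to -1.90, limma adjusted p 0.00489) and was not called without HFD array 2. Cd209d and Cd209g, C-type lectins, fell from 495 and 412 to 96.0 and 66.5 and from 581 and 675 to 152 and 121. Syt12, a synaptotagmin, fell from 731 and 766 to 199 and 126, and Agt, angiotensinogen, from 1093 and 2482 to 391 and 366. In the last the chow mice lay far apart. Gsta4 and Gsta3, glutathione transferases that take up products of lipid peroxidation, fell from 803 and 694 to 150 and 199 and from 2283 and 2522 to 601 and 677. Eci3, an enoyl-CoA isomerase of peroxisomes, fell from 477 and 534 to 132 and 149. Amhr2, the receptor of anti-Müllerian hormone, fell from 422 and 410 to 126 and 116. Prodh, which starts proline breakdown in mitochondria, fell from 254 and 490 to 106 and 104, with the chow mice further apart than the HFD mice. Ptgds, a prostaglandin D synthase, fell 3.39-fold, while Hpgds, the other enzyme that makes this prostaglandin, rose from 19.7 and 39.6 to 267 and 271. In each of these genes the groups did not overlap, as in every called gene.

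**Figure D3:**
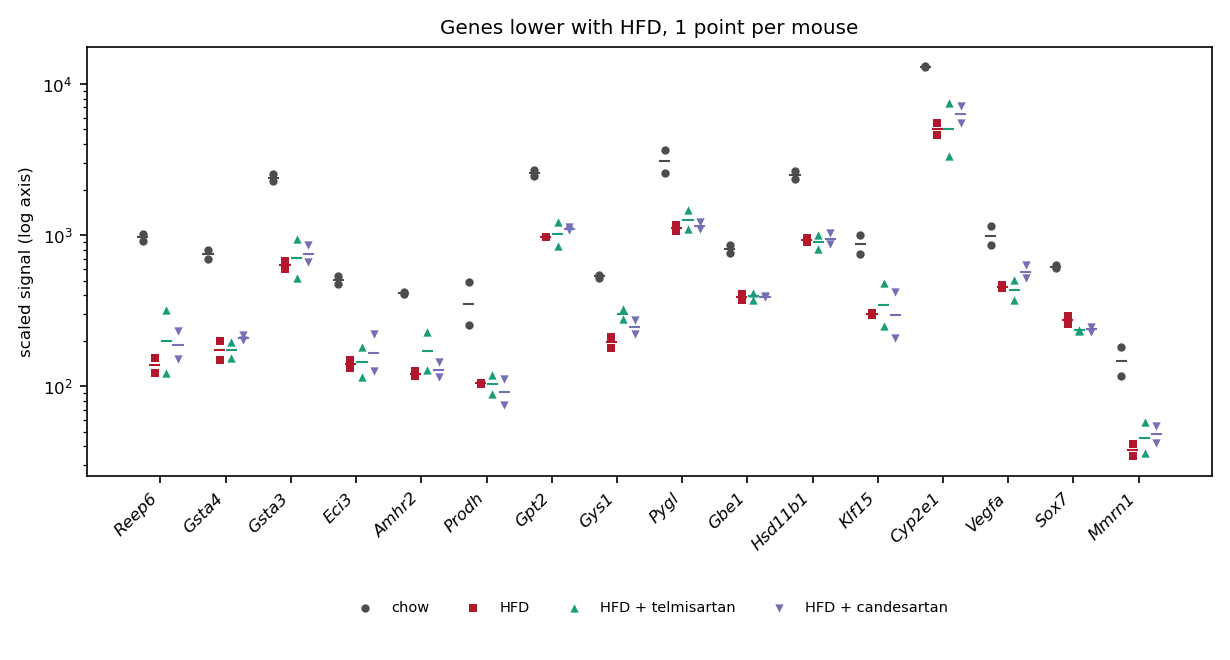
Scaled signal (vertical log axis) of 16 genes called lower with HFD, 1 point per mouse. Lines mark geometric means, in the same 4 groups and colours as for the genes that rose. Both HFD mice lie below both chow mice in every gene, and chow mice are further apart than HFD mice for Prodh and Mmrn1.

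The promoters of the genes that rose held certain short motifs more often than those of all genes tested, and differed from them in base composition. Windows of 300 bases, from 250 before to 50 after the start of a transcript, were taken from RefSeq on GRCm38.p6, 1 per gene, and were found for 9091 of the 11232 genes. Letters were searched on both strands. AGGAAGT, a form of the ETS site that the myeloid factor PU.1 binds, stood in 85 of 469 windows of genes called higher (18.1%), 19 of 266 of genes called lower (7.14%) and 819 of 9091 in all (9.01%). TGANTCA, a looser pattern that includes the site of Fos and Jun dimers (TGACTCA or TGAGTCA), stood in 8.96%, 4.51% and 4.74% of the same sets. It also matches TGAATCA and TGATTCA, and the shares do not separate these. Of the 80 genes with a window and a rise of at least 4-fold, 17 held the first (21.2%) and 13 the second (16.2%). Stretches with the match in capitals are shown for 4 of the largest rises that hold each motif, with up to 40 bases on both sides, because they show how the letters sit near the start. For the first motif these are Mmp12 (chr9:7344269-7344355, plus strand), Il7r (chr15:9529879-9529965, minus strand), Cd72 (chr4:43454629-43454715, minus strand) and Hpgds (chr6:65144732-65144818, minus strand), each written 5′ to 3′ on the gene's strand.
Mmp12: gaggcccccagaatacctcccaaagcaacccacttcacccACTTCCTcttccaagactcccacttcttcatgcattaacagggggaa
Il7r: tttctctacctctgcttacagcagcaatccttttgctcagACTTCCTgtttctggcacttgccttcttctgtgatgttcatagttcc
Cd72: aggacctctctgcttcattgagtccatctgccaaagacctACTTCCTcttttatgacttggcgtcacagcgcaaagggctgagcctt
Hpgds: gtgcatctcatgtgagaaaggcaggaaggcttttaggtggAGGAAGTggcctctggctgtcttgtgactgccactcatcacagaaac

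In the first 3 of these the motif reads on the opposite strand, so the capitals show its complement, and in Hpgds it reads on the gene's own strand. Cd72, a lectin-like receptor of B cells and myeloid cells, rose from 32.0 and 52.2 to 477 and 544, and Mmp12, the macrophage elastase, from 65.2 and 107 to 2805 and 4188. For TGANTCA the match reads TGACTCA in Il13ra2, TGAGTCA in Slc25a13 and Itgax, and TGAATCA, outside the Fos and Jun site itself, in Trem2. The stretches come from Il13ra2 (chrX:147429339-147429425, minus strand), Trem2 (chr17:48346352-48346400, plus strand), Slc25a13 (chr6:6217257-6217343, minus strand) and Itgax (chr7:128129454-128129540, plus strand).
Il13ra2: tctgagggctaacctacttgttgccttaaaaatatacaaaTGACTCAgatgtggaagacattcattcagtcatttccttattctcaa
Trem2: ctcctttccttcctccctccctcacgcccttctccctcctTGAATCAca
Slc25a13: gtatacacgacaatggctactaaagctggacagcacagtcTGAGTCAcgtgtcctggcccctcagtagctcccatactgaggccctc
Itgax: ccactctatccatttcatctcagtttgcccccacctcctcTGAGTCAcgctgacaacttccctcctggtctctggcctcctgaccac

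A match of letters is a description and not a bound site. Among 95 matches of AGGAAGT in windows of genes called higher the median place was 48 bases before the start, and 50.5% lay within 100 bases before it. Over all genes tested these values were 60 bases and 40.4%. Base composition moved with the same sets. The median GC content was 58.3% for genes called higher, 53.3% for those with a rise of at least 4-fold, 61.7% for genes called lower and 61.0% over all. Within windows of at most 60% GC, AGGAAGT stood in 27.7% of those of genes called higher, 11.4% of those of genes called lower and 12.5% of all, and within windows over 60% GC in 6.22%, 3.95% and 6.09%. The higher share of AGGAAGT was therefore seen in the GC-poorer windows and not in the GC-richer ones. TGANTCA stood in 13.1% of GC-poorer windows of genes called higher against 7.05% of all, and in 3.83% against 2.82% of GC-richer ones. When any listed window of a gene could hold the match, the shares were 20.7% of genes called higher and 10.6% of all for the first motif, and 12.6% and 6.17% for the second.

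The other 7 motifs gave the following shares. The GC box GGGCGGG stood in 41.6% of the windows of genes called higher, 50.4% of genes called lower and 48.4% of all, and in 27.5% of those with a rise of at least 4-fold. TATAAA, the TATA box, stood in 9.59%, 6.39% and 6.96%. CCAAT, the site of NF-Y, stood in 34.1%, 36.1% and 38.1%. AGGTCA, to which nuclear receptors bind, stood in 15.6%, 12% and 11.8%. TCACGTG, part of the element of lysosomal genes that TFEB binds, stood in 7.04%, 4.51% and 6.26%. TTGCGCAA and GGGANTTCC, forms of the C/EBP and NF-kB sites, each stood in under 2.5% of windows in any set. Spi1, which encodes PU.1 itself, rose from 229 and 240 to 786 and 795, a stable call. Atf3, a stress-induced relative of Fos and Jun, rose from 149 and 161 to 940 and 1119.

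**Figure D4:**
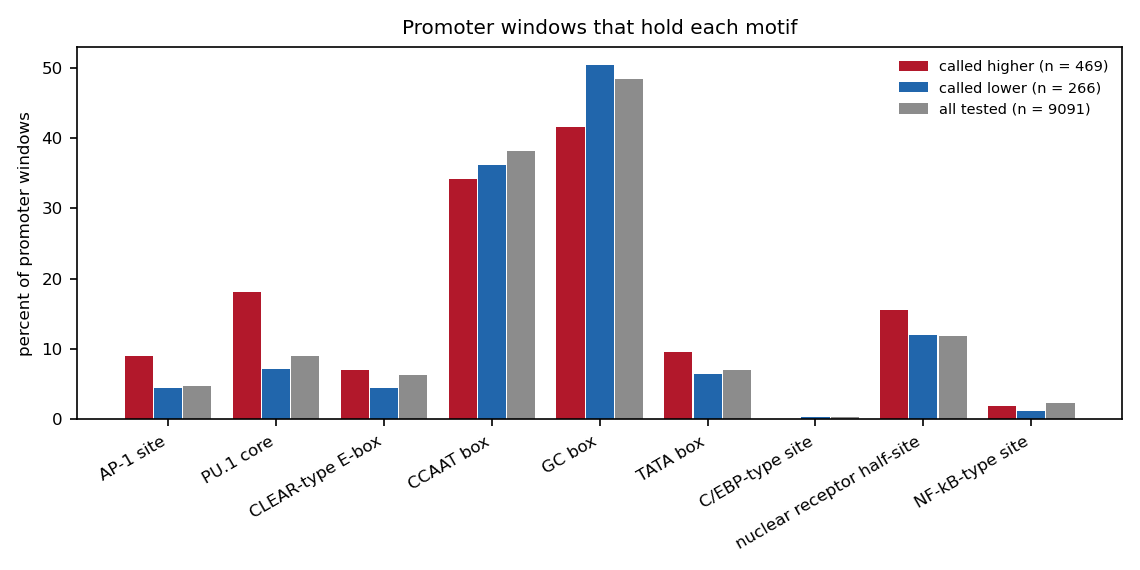
Percent of promoter windows that hold each of 9 motifs on either strand, for 469 genes called higher (red), 266 called lower (blue) and 9091 tested (grey), with the vertical axis starting at 0. The PU.1 core and the pattern labelled AP-1 site (TGANTCA) are more frequent among genes called higher than among all genes tested. The GC box is less frequent.

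Of 55 lists of genes by function, the immune receptors of the CD300, SLAM, SIGLEC, PIR and TREM families had the largest share of members called. These paired activating and inhibitory receptors sit on myeloid cells and lymphocytes and set the threshold of their activation. The counts of this and the other lists stand against 5.15% of all genes tested called higher and 2.95% called lower. They cover only members that passed the brightness filter, which favours genes bright with HFD. The part of that filter in the shares called higher was not tested. Of 18 tested members, 16 rose and 0 fell, with a median log2 change of 2.20. A further 14 on the array were too dim to test. Cd84, a SLAM receptor, read 179 and 236 in the chow mice and 1472 and 1682 in the HFD mice. Cd300lb rose from 143 and 207 to 1191 and 1307 and Cd300c2 from 131 and 138 to 795 and 954. Cd200r1, an inhibitory receptor of myeloid cells, rose from 54.6 and 63.0 to 344 and 313. The mice of the diets did not overlap in 17 of 18 members, against 58.1% of all genes tested. Since no called gene overlapped, this count largely follows from the calls. With chow array 1 or chow array 2 left out 14 members were called, with HFD array 1 left out 9 and with HFD array 2 left out 8. The 8 stable members are Trem2, Cd84, Cd300a, Cd300lb, Cd300c2, Cd200r1, Cd200r4 and Sirpb1a. Milr1 and Cd300lg did not pass the test, at 1.63 and -0.19 on the log2 scale.

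**Figure D5:**
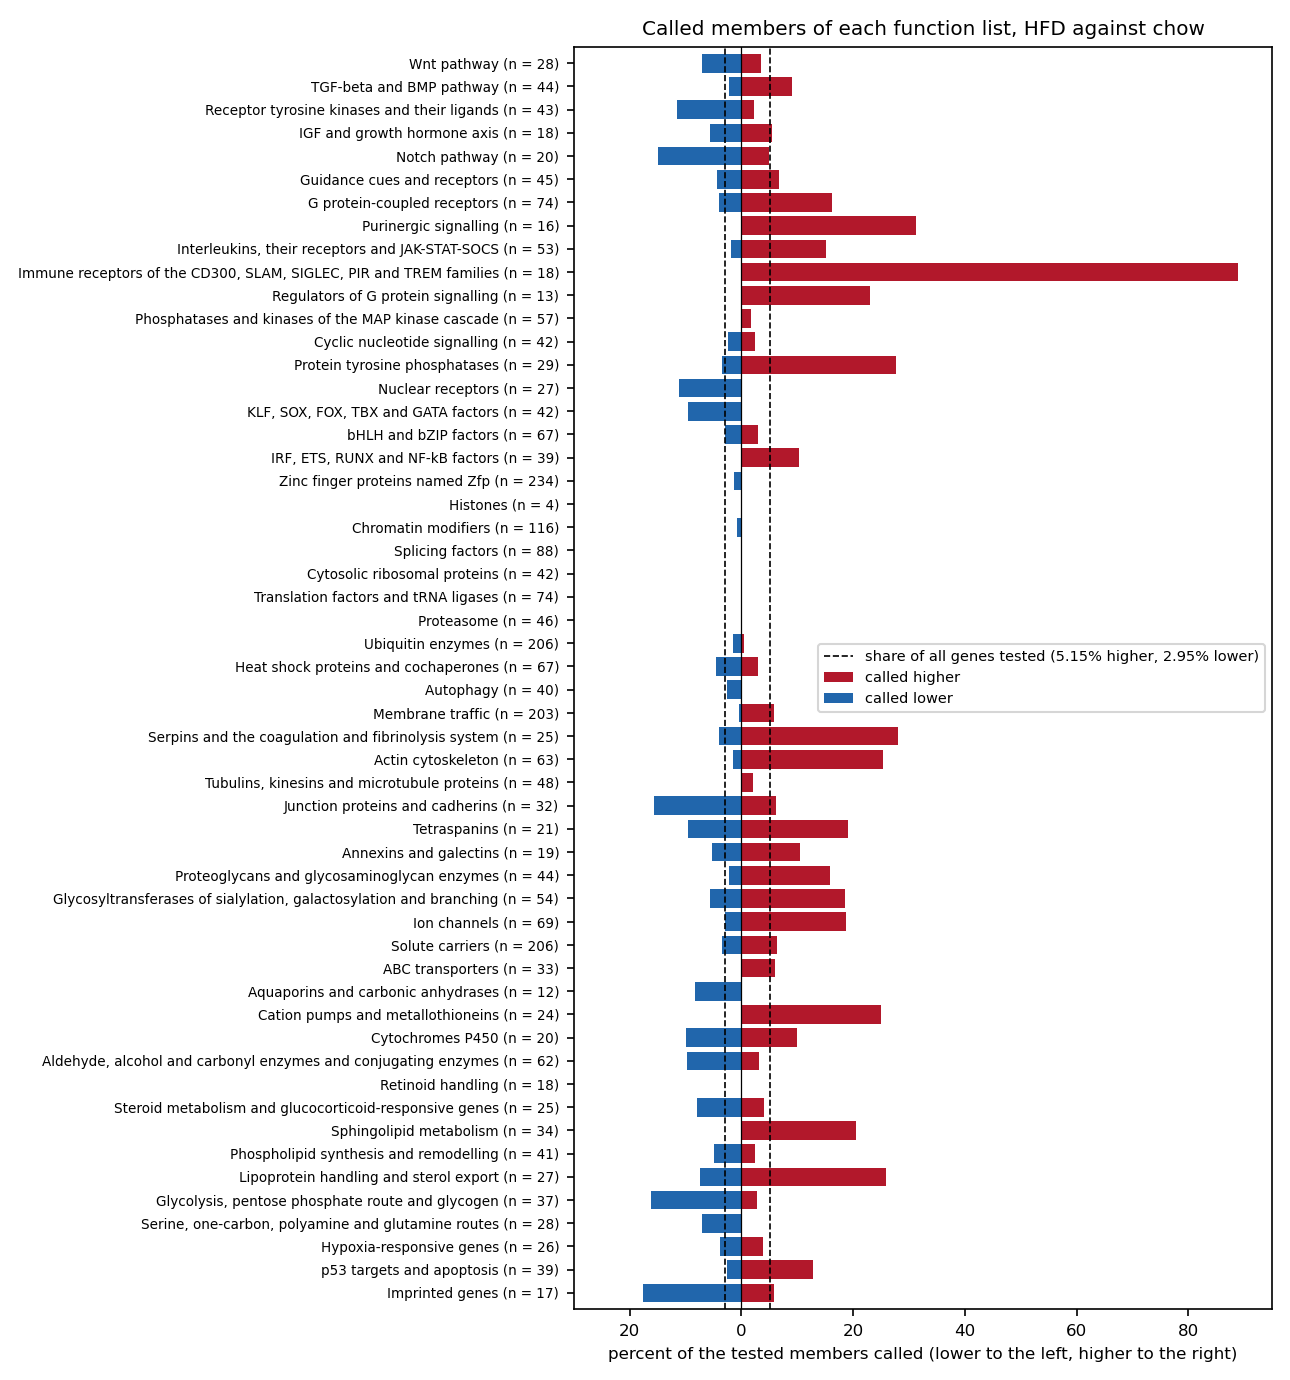
Share of the tested members of each of 54 function lists that were called higher (red, to the right of 0) and lower (blue, to the left of 0), with dashed lines at the shares over all genes tested. The immune receptor list stands at 88.9% higher, and 6 lists show no called member.

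Receptors for soluble signals were called higher in shares above the 5.15% over all genes, where rises also outnumber falls. Of 53 interleukins, receptors and JAK-STAT-SOCS genes, 8 rose (15.1%) and 1 fell (1.89%). Il1rn, the interleukin 1 receptor antagonist, read 39.4 and 58.1 in chow and 274 and 339 in HFD, and like Il7r and Il13ra2 was stable. Crlf2, the thymic stromal lymphopoietin receptor, rose 1.71-fold, and Il17re, an interleukin 17C receptor chain, fell 1.93-fold. Of 74 G protein-coupled receptors tested, 12 rose (16.2%) and 3 fell (4.05%), while 90 others on the array were too dim to test. Lpar3, a lysophosphatidic acid receptor, was dim in the chow mice (16.6 and 18.9) and reached 90.3 and 66.8 with HFD. Gpr137b rose from 441 and 465 to 1493 and 1515. Its near-identical copy Gpr137b-ps rose similarly (419 and 584 to 1545 and 1394), and the array may not separate them. Ffar4, the omega-3 fatty acid receptor of adipocytes, fell from 370 and 434 to 171 and 181, and Adgrg2, an adhesion receptor, from 326 and 476 to 106 and 133. The 3 falls in this list were lost without either chow array, either HFD array or either candesartan array.

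Several receptors for extracellular nucleotides rose. Of 16 purinergic genes 5 rose (31.2%, against 5.15% over all genes) and 0 fell, with a median log2 change of 0.38. P2rx4, an ATP-gated channel, read 612 and 708 in chow and 1628 and 1662 in HFD. P2ry6, the UDP receptor, went from 342 and 428 to 910 and 973, P2ry14, the UDP-glucose receptor, from 51.8 and 66.7 to 136 and 137, and Panx1, a channel that releases ATP, from 53.6 and 64.8 to 154 and 134. None of these overlapped between diets, as holds for every called gene. With chow array 1, HFD array 1 or HFD array 2 left out 0 members were called.

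Among signalling enzymes, calls were frequent for tyrosine phosphatases and rare for MAP kinases. Of 29 protein tyrosine phosphatases 8 rose and 1 fell. Ptprc, the leukocyte antigen CD45, read 540 and 787 in chow and 2025 and 1942 in HFD, and Ptpn22, which restrains antigen receptor signals, 48.9 and 85.2 against 255 and 253. Ptpn4 fell from 747 and 763 to 414 and 387. Without HFD array 1 or 2, 1 and 0 phosphatases were called higher. Of 13 regulators of G protein signalling 3 rose, Rgs1 the most (33.0 and 45.0 to 739 and 957). Of 57 MAP kinases and dual-specificity phosphatases only Map4k1, a kinase of blood cells, was called, with 70.02 and 90.02 in chow and 189 and 162 in HFD. In cyclic nucleotide signalling 1 of 42 genes rose (Adcy7, an adenylyl cyclase, 2.56-fold) and 1 fell (Pde3b, the insulin-activated phosphodiesterase, 1.46-fold).

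In receptor tyrosine kinase and Notch signalling called falls outnumbered called rises. Of 43 receptor tyrosine kinases and ligands 5 fell (11.6%, against 2.95% over all genes) and 1 rose. The median log2 change of these 43 genes was -0.005, and 20 of the changes were above 0. Vegfa, the main growth factor of blood vessels, read 1144 and 862 in chow and 445 and 470 in HFD (log2 change -1.12, 95% CI -1.58 to -0.66, limma adjusted p 0.0146) and lost its call without chow array 1 or either HFD array. Flt4, the lymphatic growth factor receptor, fell from 298 and 327 to 165 and 147, Ddr1, a collagen receptor, from 1808 and 2142 to 826 and 1104, and Nrg4, a ligand secreted by fat, from 1024 and 1060 to 528 and 620. Fgf7, a stromal growth factor, rose from 58.4 and 79.5 to 123 and 152. In the Notch pathway 3 of 20 genes fell (15%) and 1 rose, and the list's median was -0.49. Notch4, an endothelial receptor, read 502 and 415 in chow and 254 and 270 in HFD, Nrarp, a Notch target, 830 and 1042 against 541 and 389, and Notch1 631 and 640 against 453 and 401. Dtx4, a Notch regulator, rose 1.57-fold. No called member of these 2 lists was stable.

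The other growth factor lists had 1 to 4 calls in each direction, against 5.15% called higher and 2.95% lower over all genes. In the TGF-beta and BMP pathway 4 of 44 genes rose (9.09%) and 1 fell (2.27%). Gdf3, a ligand made by macrophages in fat, read 30.8 and 30.2 in chow and 211 and 224 in HFD, a stable 7.13-fold rise. Fst, the activin inhibitor follistatin, rose 2.03-fold, Tgfbr1 1.90-fold and Ltbp2, a matrix protein, 1.64-fold, and Acvr1c, the receptor ALK7 of adipocytes, fell 1.65-fold. In the Wnt list Sfrp1, a secreted inhibitor, rose from 204 and 280 to 546 and 418, while the receptor Fzd6 and the repressor Tcf7l1 fell, 3 calls among 28 genes (3.57% higher and 7.14% lower). Of 18 genes of the IGF and growth hormone axis Igf2r rose 1.97-fold and Igf2 fell 1.98-fold (5.56% each way). Among 45 guidance cues 3 rose (6.67%) and 2 fell (4.44%). Sema4d, a semaphorin of leukocytes, rose from 134 and 139 to 501 and 560, a stable call, while Ephb4, the receptor that marks veins, fell from 260 and 224 to 140 and 107.

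The counts of transcription factors are small, and over all genes 5.15% were called higher and 2.95% lower. Among 39 IRF, ETS, RUNX and NF-kB factors 4 rose (10.3%) and 0 fell. Besides Spi1 these were Runx1 (48.3 and 78.5 to 203 and 220), Irf5 (167 and 217 to 444 and 489) and Irf8 (451 and 368 to 1035 and 840), all factors of the myeloid lineage. Among 42 KLF, SOX, FOX, TBX and GATA factors 0 rose and 4 fell (9.52%). Klf15, a glucocorticoid-induced factor of adipocytes, read 755 and 997 in chow and 305 and 298 in HFD. Sox7 fell from 610 and 630 to 260 and 293, a stable call, and Sox18 from 1796 and 1211 to 865 and 759. Both are endothelial factors. Of 27 nuclear receptors 0 rose and 3 fell (11.1%). Pparg, the master factor of adipocytes, read 2883 and 3175 against 1660 and 1792, Esr1, the oestrogen receptor alpha, 657 and 723 against 379 and 351, and Thra, a thyroid hormone receptor, 613 and 628 against 381 and 431. The groups did not overlap in these genes, as in every called gene, but without either chow array or either HFD array 0 nuclear receptors were called. Among 67 bHLH and bZIP factors Atf3 and Mitf, a factor of lysosomal and pigment genes, rose (2.99%), and Tcf7l1 and Tcf21, a factor of visceral progenitors, fell (2.99%).

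Most lists of the general machinery of the cell had few or no calls, while over all genes 5.15% were called higher and 2.95% lower. Of 234 zinc finger proteins 0 rose and 3 fell, and of 116 chromatin modifiers only Hdac1 was called, with 1453 and 1436 in chow and 855 and 927 in HFD. By limma 0 of 88 splicing factors, 0 of 42 cytosolic ribosomal proteins, 0 of 74 translation factors and tRNA ligases, 0 of 46 proteasome genes, 0 of 18 retinoid genes and 0 of 4 histones passed the test. For lists as short as the last 2, a count of 0 cannot be set apart from the shares over all genes. The nearest to passing were Rps25 (limma adjusted p 0.0541), Psme1 (0.0555), Rbp4, the retinol carrier (0.0506) and Rbm38 (0.0515). The median log2 change was 0.00 for splicing factors, 0.10 for ribosomal proteins, -0.01 for translation and -0.05 for the proteasome. Of 206 ubiquitin enzymes 1 rose (Rnf128) and 3 fell. Of 67 heat shock proteins and cochaperones 2 rose (2.99%) and 3 fell (4.48%), the share of falls not being below that over all genes. Hspa5, the chaperone BiP of the endoplasmic reticulum, rose from 4726 and 4709 to 6341 and 6387, and Hspa1b, an inducible HSP70, fell from 1198 and 921 to 479 and 617. Of 40 autophagy genes only Atg4d, a protease that processes the autophagosome protein LC3, was called (214 and 191 to 97.9 and 92.4).

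A number of actin cytoskeleton genes rose, with forms of blood cells among the largest rises. Of 63 genes 16 rose and 1 fell, with a median log2 change of 0.18. Lcp1, the leukocyte actin bundler L-plastin, read 696 and 810 in chow and 3999 and 3774 in HFD, while its relative Pls3, of solid tissues, fell from 1355 and 1271 to 927 and 795. Myo1f, a motor protein of leukocytes, rose from 130 and 150 to 701 and 670, Capg, which caps filaments, from 1018 and 840 to 2990 and 3255, and Fermt3, which activates blood cell integrins, from 509 and 540 to 1429 and 1366. These 4 rises were stable. Without HFD array 1 or 2, 5 and 4 actin genes were called higher. Of 48 tubulins, kinesins and microtubule proteins only Kif21b was called, at 2.31-fold.

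Cell junctions and adhesion divided by family. Of 32 junction proteins and cadherins 5 fell and 2 rose, and 27 of 32 changes were at or below 0. Jup, plakoglobin of desmosomes, read 602 and 836 in chow and 290 and 316 in HFD. Cldn22, a claudin, fell from 352 and 383 to 110 and 139, and Cdh13, the adiponectin-binding cadherin of vessels, from 476 and 402 to 252 and 235. Gjc1, the connexin 45 of vessel walls, fell 1.71-fold. Pcdhb9 and Pcdh7, protocadherins, rose 2.47-fold and 1.73-fold. Without HFD array 1, 0 members were called lower, and without HFD array 2, 1. Of 21 tetraspanins 4 rose and 2 fell. Cd53 of leukocytes (817 and 818 to 2088 and 2062) was stable, and Cd9 went from 1064 and 935 to 2229 and 2828. Of 19 annexins and galectins Lgals3, a galectin of phagocytes, rose from 3596 and 4007 to 12412 and 14438, Anxa8 rose 2.22-fold and Lgals12, the galectin of adipocyte lipid droplets, fell from 790 and 1136 to 508 and 532.

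The enzymes and proteins that make up the sugar coat of cells changed in both directions. Of 54 glycosyltransferases 10 rose and 3 fell while the list's median stayed at 0.00. B4galnt1, which makes GM2 and GD2 gangliosides, read 54.7 and 61.8 in chow and 244 and 234 in HFD, a stable call. Galnt6, which starts O-linked chains, reached 133 and 156 from 22.2 and a floor value of 6.68. St8sia4, a polysialyltransferase, rose from 394 and 502 to 1210 and 996, while the sialyltransferases St3gal4 and St3gal2 fell 1.74-fold and 1.57-fold and B3galt2 fell 2.34-fold. Of 44 proteoglycans and their enzymes 7 rose and 1 fell. Cd44, the hyaluronan receptor, rose from 1052 and 760 to 2631 and 2965, Lum, lumican of collagen fibrils, from 2636 and 1876 to 5500 and 4807, and Srgn, the granule proteoglycan of leukocytes, 1.59-fold. Chst1, a keratan sulfate sulfotransferase, fell from 1487 and 1907 to 637 and 908. With an HFD array left out, 1 glycosyltransferase was called higher in either case, and 1 and 0 proteoglycan genes.

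Serpins and the coagulation system had 7 rises and 1 fall among 25 genes. Besides F7, Plaur, the urokinase receptor, rose from 116 and 98.9 to 326 and 384, and both were stable. Serpinf1, the anti-angiogenic factor PEDF made by adipocytes, rose from 3900 and 3262 to 5463 and 5950. Thbd, thrombomodulin of the vessel wall, read 1508 and 2913 in chow and 725 and 966 in HFD. The chow mice were far apart in this gene, though both lay above the HFD mice, and the call was lost without chow array 2, either HFD array or either candesartan array.

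Of 187 ion channels on the array 118 were too dim to test. Of the 69 tested, 13 rose (18.8%, against 5.15% over all genes) and 2 fell. The filter favours genes bright with HFD, and its part in this share was not tested. Kcnn4, a calcium-activated potassium channel of blood cells, read 114 and 104 in chow and 756 and 761 in HFD (log2 change 2.80, 95% CI 2.39 to 3.21, limma adjusted p 0.000403). Kcnj14, an inward rectifier, rose from 92.3 and 115 to 345 and 358. Both were stable. Cacna1d, an L-type calcium channel, was dim in chow (20.6 and 24.6) and read 105 and 79.8 in HFD. Its log2 change was 2.02, and 0.89 with probe sets shared between transcripts left out, where it was not called. Clic5, an intracellular channel protein tied to the membrane cytoskeleton, fell from 247 and 228 to 96.8 and 126, and Kcnj15 from 697 and 942 to 465 and 450. Without chow array 1 or either HFD array, 3, 2 and 2 channels were called higher.

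Solute carriers rose and fell, with the largest rises in carriers of lysosomes and mitochondria. Of 206 tested, 13 rose and 7 fell, shares close to those over all genes. Slc15a3, which exports peptides and histidine from lysosomes, read 73.6 and 86.0 in chow and 818 and 806 in HFD. Slc37a2, a sugar phosphate carrier of macrophages, rose from 79.9 and 103 to 789 and 752, Slc25a13, the mitochondrial aspartate-glutamate carrier, from 10.2 and 18.8 to 137 and 145, and Slc6a6, the taurine transporter, from 1027 and 822 to 2589 and 2536. These were stable. Slc2a13, a myo-inositol transporter, fell from 363 and 299 to 152 and 149, and Slc9b2, a sodium-proton exchanger, from 68.3 and 137 to 29.8 and 28.4. Slc2a4, the insulin-responsive GLUT4, was the fall with the smallest p in the list and lost its call without HFD array 1.

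Pumps and metal-binding proteins rose in 6 of 24 cases. Atp1a4, a sodium pump subunit of sperm, read 91.6 and 120 in chow and 294 and 255 in HFD, and Atp8b4, a lipid flippase, 61.0 and 108 against 230 and 308. Mt2 and Mt1, metallothioneins that bind zinc and copper, rose from 1495 and 2461 to 5086 and 4864 and from 3584 and 4443 to 6697 and 6522. No member of this list was stable. Of 33 ABC transporters Abcb4, a phospholipid exporter, and Abcg1, a sterol exporter, rose 2.83-fold and 2.13-fold. Of 12 aquaporins and carbonic anhydrases only Car5b, the mitochondrial anhydrase, was called (1353 and 1079 to 544 and 460).

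Several enzymes and carriers of lysosomal lipid rose. Of 34 sphingolipid genes 7 rose and 0 fell. Gla and Hexa, lysosomal hydrolases whose loss causes Fabry and Tay-Sachs disease, read 119 and 128 against 306 and 348 and 2718 and 2672 against 4802 and 5023. Cerk, the ceramide kinase, rose from 211 and 235 to 629 and 576. Of 27 genes of lipoprotein handling and sterol export 7 rose and 2 fell. Lipa, the acid lipase of lysosomes, rose from 883 and 846 to 3507 and 3626, and Msr1, a scavenger receptor, from 38.5 and 52.7 to 308 and 309, both stable. Gpihbp1, which holds lipoprotein lipase on capillary walls, fell from 3304 and 2890 to 1997 and 1943, and Apoc1 fell 1.67-fold. In phospholipid synthesis 1 of 41 genes rose, Pld3, a lysosomal nuclease named as a phospholipase (540 and 518 to 1824 and 1877), and 2 fell, Chpt1, the last step of phosphatidylcholine synthesis (9775 and 8925 to 5734 and 4357), and Crls1, the cardiolipin synthase. With HFD array 1 left out 1 sphingolipid gene was called higher, and with HFD array 2 left out 0.

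Membrane traffic was close to the background for rises (12 of 203) and below it for falls (1 of 203). Rab7b, a GTPase of late endosomes in myeloid cells, read 377 and 360 in chow and 1298 and 1443 in HFD. Rab8b rose from 924 and 1220 to 2903 and 2849, and the sorting nexins Snx20 and Snx8 2.74-fold and 2.47-fold. Stx2, a plasma membrane syntaxin, fell from 728 and 628 to 338 and 448.

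Of 37 genes of glycolysis, the pentose phosphate route and glycogen 6 fell (16.2%, against 2.95% over all genes) and 1 rose, and the list's median was -0.25. Gys1, the glycogen synthase of muscle and fat, read 543 and 524 in chow and 180 and 212 in HFD (log2 change -1.45, 95% CI -1.84 to -1.06, limma adjusted p 0.00235), a stable call. The glycogen phosphorylases Pygl and Pygb fell from 3642 and 2588 to 1068 and 1161 and from 2437 and 3675 to 1243 and 1273, and the branching enzyme Gbe1 from 858 and 764 to 407 and 371. Hk2, the insulin-induced hexokinase, and Ldhb, a lactate dehydrogenase subunit, fell by 0.85 and 1.17 on the log2 scale, while Hk3, the hexokinase of leukocytes, rose from 135 and 149 to 633 and 705. Gpd2, the mitochondrial glycerophosphate dehydrogenase, fell from 797 and 694 to 298 and 309. Without HFD array 1 or 2, 2 members of the list were called lower in either case.

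Some enzymes of amino acid and aldehyde breakdown fell. Of 28 genes of serine, one-carbon, polyamine and glutamine routes 0 rose and 2 fell (7.14%, against 2.95% over all genes), Prodh and Gpt2, the mitochondrial alanine aminotransferase, which read 2459 and 2710 in chow and 978 and 977 in HFD. Of 62 aldehyde, alcohol and conjugating enzymes 6 fell (9.68%) and 2 rose, and 28 of the 62 changes were above 0. Aldh2, the mitochondrial acetaldehyde enzyme, read 4589 and 5184 in chow and 2884 and 2845 in HFD, Aldh6a1, of valine breakdown, 3225 and 4137 against 2040 and 1994, Aldh5a1 213 and 202 against 95.6 and 106, and Dhrs7 3096 and 2053 against 1222 and 1188. Akr1b8, an aldose reductase relative, rose 1.93-fold, and Adh6b, an alcohol dehydrogenase, rose from 34.1 and 8.94 to 99.8 and 125. Of 20 cytochromes P450, Cyp2e1, the ethanol-oxidizing form, fell from 12923 and 13048 to 5557 and 4623 and Cyp2f2 fell too, while Cyp2c23 and the oxysterol hydroxylase Cyp7b1 rose 3.43-fold and 2.91-fold. With HFD array 1 or 2 left out 0 genes of the aldehyde list were called. Hsd11b1, which regenerates active glucocorticoid, fell from 2368 and 2676 to 907 and 958, a stable call and 1 of 2 falls among 25 steroid genes.

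Stress and growth-state genes gave a mixed picture. Of 39 p53 targets and apoptosis genes 5 rose and 1 fell. Bcl2l11, the death protein BIM, read 344 and 309 in chow and 1041 and 821 in HFD, Cdkn1a, the cell cycle inhibitor p21, 759 and 608 against 1325 and 1169, and Gadd45b 322 and 367 against 695 and 782. Cdkn2c, the inhibitor p18, fell from 4357 and 4044 to 2196 and 2441. Of 26 hypoxia-responsive genes Hif1a rose 1.46-fold and Vegfa fell. Of 17 imprinted genes 3 fell and 1 rose. Plagl1, a growth-restraining factor, read 4072 and 4878 in chow and 1311 and 1818 in HFD, and Ndn, necdin, 1968 and 2091 against 1007 and 849. None of these was stable.

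Markers of other cells of the pad moved unevenly. Of 6 tested lymphatic endothelium markers 4 fell (66.7%), while over all genes tested 5.15% were called higher and 2.95% lower. Several marker lists are short, and 1 call in such a list is not a result about the list. Lyve1 read 829 and 949 in chow and 357 and 268 in HFD, Mmrn1 117 and 182 against 41.5 and 34.4, and Reln 138 and 221 against 53.6 and 49.5, beside Flt4. Pdpn, also a lymphatic marker but shared with other cells, did not pass the test (863 and 825 against 1024 and 945), nor did Stab2, at 23.8 and 37.9 in chow against 168 and 104 in HFD (limma adjusted p 0.0502). The summed signal of the list was 2269 and 2543 in chow and 1809 and 1548 in HFD. The count of falls was 4 without chow array 1 and 1, 1 and 0 without chow array 2, HFD array 1 and HFD array 2. Lyve1 is also carried by some tissue macrophages.

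Of 17 smooth muscle and pericyte markers 3 fell (17.6%, against 2.95% over all genes) and 0 rose, and the median log2 change was -0.53. Myl9, a smooth muscle myosin light chain, read 1559 and 1398 in chow and 758 and 669 in HFD, Tpm2 1228 and 790 against 570 and 404, and Smtn 424 and 331 against 204 and 222. Their summed signal was 22512 and 22748 in chow and 16942 and 16414 in HFD. Of 14 fibroblast and progenitor markers 3 rose (Lum, Col1a1 and Fap) and 0 fell, a share of rises of 21.4% against 5.15% over all genes. Alas2, which makes haem in red cell precursors, fell from 755 and 675 to 139 and 249, a stable call, as 1 of 2 tested red blood cell markers. Igha, the heavy chain of IgA, rose from 457 and 378 to 1025 and 978. It was the only 1 of 6 plasma cell markers called. Jchain, which joins the chains of IgA and IgM, read 760 and 602 against 3021 and 2031 without passing (limma adjusted p 0.147). Pf4 rose 1.64-fold as 1 of 3 platelet markers. None of 11 mesothelium, 5 Schwann cell, 4 neutrophil, 3 dendritic cell, 2 regulatory T cell and 2 lymph node markers tested was called by limma, and the list medians were 0.00, 0.04, 0.25, -0.37, -0.26 and 1.10 on the log2 scale.

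Genes called in the same direction stood next to each other in several places. The order of 11213 tested genes was taken from the RefSeq gene table, and runs of at least 3 neighbours were listed. Runs of rises included Cd300a, Cd300lb, Cd300ld and Cd300c2 on chromosome 11, Ly9, Slamf7, Cd48 and Cd84 on chromosome 1, and Ccl9, Ccl6 and Ccl3 on chromosome 11. These are clusters of related genes, as are Clec4a3, Clec4b1 and Clec4a2, and Tmem176b and Tmem176a beside Gpnmb, all on chromosome 6. Other runs joined unrelated genes. On chromosome 13 Sema4d stood beside Gadd45g, Diras2 and Syk, the last a kinase of immune receptors that rose from 182 and 253 to 786 and 712. On chromosome 6 Gdf3 stood between Apobec1, an RNA-editing deaminase (235 and 195 to 918 and 723), and Dppa3, a germline factor (12.6 and 19.3 to 95.1 and 111). Further runs of rises were Neurl2, Ctsa and Pltp on chromosome 2, and Pvalb, Ncf4 and Csf2rb2 on chromosome 15. On chromosome 7 Pycard stood beside Itgam and Itgax, which are related integrin genes. The only run of falls was Rapgef1, Trub2 and Coq4 on chromosome 2. By chromosome, the share called higher ran from 3.15% on chromosome 9 to 7.88% on chromosome 6 and the share called lower from 1.46% on chromosome 13 to 4.32% on chromosome 2.

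The 72 lists of functions and cell markers held 2949 of the tested genes and 311 of the 909 calls (10.5% of their genes), 214 higher and 97 lower. The other 598 calls were among 8283 genes in none of the lists (7.22%). Outside the lists were stable falls of Klhl2, an adaptor of ubiquitin ligases (1439 and 1752 to 598 and 566), Sfxn1, the mitochondrial serine carrier (2223 and 2329 to 961 and 824), Ptges, a prostaglandin E synthase (700 and 848 to 143 and 251), and Fcna, the lectin ficolin A (1846 and 1862 to 749 and 663). Stable rises outside the lists included Ubd, a ubiquitin-like protein induced by inflammatory cytokines (126 and 150 to 4938 and 4615), and Glipr1 (108 and 127 to 1409 and 1485).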

How the data were processed

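The authors' deposited table holds a linear signal intensity per probe set from 1-colour arrays, made with GeneChip Analysis Suite (per the series design text). Of the algorithm, its version is not given in the sources; nor is any scaling. It held 45101 probe sets (64 controls), 0 negative values and 0 columns of other samples. Depth is not defined for arrays, and the 2 arrays per group limit the precision (the median 95% CI reached 0.44 to each side, log2).

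Each array was divided by its own 2%-trimmed mean and brought to a shared level. The 20th percentile of all scaled values, 6.68, served as a floor before log2. The brighter 22519 probe sets (50th percentile of the mean) were kept, and the brightest with a single listed symbol stood for a gene. limma 3.58.1 (R 4.3.3, Python 3.11.15) fitted 4 group means to all 8 arrays with an intensity trend, 4 residual degrees of freedom, two-sided, and was tested on simulated data. Within a group the replicate numbers mark separate mice, and the labels state no pairing across groups. Replicate differences of chow and HFD correlated at 0.084 over genes, a value for this pair of groups only. Before scaling, the array numbered 1 had the higher trimmed mean in each of the 4 groups. With the number as a replicate block 1280 genes were called, so an effect shared by number is not excluded. The series states no batch.

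The lists, motifs and genes were chosen with earlier results of these data known. The rule named the 20 largest called rises and falls, the 8 with the smallest p and the 8 brightest in each direction, and up to 4 called members of each list per direction (271 genes). Further genes (such as Cd200r1, Hpgds, Fcna, Syk, Apobec1, Dppa3, Stab2, Pdpn, Jchain, Acta1 and Ldhb) were chosen after their values were seen. Alternatives were scaling, floor, filter, moderation, arrays in the fit, replicate block, probe set choice and each array left out. The result of 1 function list is not reported here. Presence calls and the authors' comparison analysis were not used.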

Additional observations from a re-analysis of the deposited data

Results flagged for a closer look

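Signal was also measured by probe sets that the annotation ties to no listed gene. Of 9160 such probe sets 2248 passed the brightness filter, and in a fit of all 22519 probe sets past the filter limma called 58 of them (2.58%), 39 higher and 19 lower with HFD. In the same fit 4.88% of all probe sets were called (1099), and in the fit of genes 8.09%. They entered no comparison of genes. The smallest p was that of probe set 1459741_x_at, with 522 and 485 in the chow mice and 2199 and 1951 in the HFD mice (log2 change 2.04). Probe set 1448188_at read 1777 and 1575 against 5553 and 5194, and 1417697_at 116 and 123 against 541 and 617. The largest rise was that of 1449254_at, from 68.1 and 21.4 to 723 and 638 (log2 change 4.15). The largest fall was that of 1421555_at, from 1768 and 2813 to 374 and 407 (log2 change -2.51). Both groups stood apart in each of them.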

How the results depend on the processing

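The count of called genes, 909 (578 higher, 331 lower), lay between 812 and 1052 under quantile normalization, median centring, other floors, a 70th percentile filter, robust moderation and other probe set choices. Without a brightness filter, with 18193 genes tested, it was 174 (125 and 49), 133 of them among the 909. Without the variance trend 208 genes were called lower, and 498 with only the chow and HFD arrays. At least 2-fold changes made up 515 calls (381 and 134). Leaving out 1 array gave 165 to 1611 calls, 137 to 878 higher and 28 to 734 lower. Replicate numbers were shared across groups, and with the number as a replicate block 1280 genes were called, 739 higher and 541 lower, including all 909. No called gene changed direction under any of these alternatives except Pacc1, at -0.27 without probe sets shared between transcripts. The cause of these shifts was not tested. Signal near background limits dim genes: 8 genes called higher had a chow array at the floor.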
